A study of Homo sapiens with 6 samples.

Results

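The mitochondrial ribosome was examined through the 77 genes whose symbols begin with MRPL or MRPS followed by a number, 48 of the large and 29 of the small subunit, out of 59074 genes listed in an RNA sequencing table of glioblastoma cells. The study asked how glioblastoma cells change when the long non-coding RNA HOTAIRM1 is silenced. LN-229, T98G and U251 cells, all established glioblastoma lines, were transfected either with non-target siPOOLs (siControl) or with siPOOLs directed against HOTAIRM1 (siHOTAIRM1), pools of many small interfering RNAs, and were harvested after 72 hours. Each cell line gave 1 library per condition, so 6 libraries in all, and no culture was sequenced more than once. The LN-229 libraries are titled LNT229, while their cell line entry reads LN-229. Each gene's level is given as CPM, its reads scaled to a library total of 1000000, and each change is the difference of log2(CPM + 1), siHOTAIRM1 minus siControl, within a cell line. Differences on this scale understate the change of genes with low values. All 77 genes passed the filter of a mean of at least 1 CPM, which left 14294 genes, and the thinnest value among them rested on about 171 reads.

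Mitochondria keep a small genome of their own and translate its messenger RNAs, which encode core subunits of the respiratory chain and of ATP synthase, on a dedicated ribosome. Its small subunit binds the messenger RNA and holds the decoding centre, and its large subunit joins amino acids and releases the growing chain through the exit tunnel toward the inner membrane. Every one of its proteins is encoded in the nucleus, made in the cytosol and imported. Part of them descend from bacterial ribosomal proteins, and others exist only in mitochondria.

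HOTAIRM1 itself was measured first. In LN-229 it stood at 1.99 CPM in the siControl and 0.952 CPM in the siHOTAIRM1 library, in T98G at 3.49 and 2.15 CPM, and in U251 at 1.27 and 0.623 CPM. It was lower after knock-down in every line, with a fitted change of −0.54 (SE 0.12, n = 3 lines, adjusted p = 0.0146, limma). The depth implied by the value of 1 read ranged from 52300000 to 104000000 reads, and the U251 siControl library was both the shallowest and the one that stood apart: the 7SL RNA gene RN7SL1 took 60589 CPM there, against 11862 to 27894 CPM in the other 5. The listed genes together held 67.2% of the CPM scale in that library and 55.9% in the U251 siHOTAIRM1 library, and 50.2% and 42.9% in the T98G pair, against 47.0% and 48.5% in the LN-229 pair. Changes in U251 and T98G are therefore also given after rescaling. Of the glioma markers, VIM and CD44 exceeded 250 CPM in every library, while T98G held NES below 1 CPM and S100B at 0.0001 CPM, the value that marks no reads. The others were low in some or all lines. GFAP was at 42.5 and 20.7 CPM in U251 and at 0.317 CPM or lower in LN-229 and T98G. OLIG2 stayed at 1.69 CPM or lower in every library. SOX2 was at 91.4 and 117 CPM in U251, 8.15 and 8.60 CPM in LN-229, and 0.0146 CPM or lower in T98G. Markers of immune, endothelial, epithelial and neuronal cells (PTPRC, PECAM1, EPCAM, RBFOX3) stayed at 0.523 CPM or lower, and the oligodendrocyte gene MBP reached 5.84 CPM in U251. The mitochondrial ribosomal RNAs, MT-RNR1 and MT-RNR2, were listed at 0.0001 CPM in all 6 libraries, so the RNA core of the particle was not measured here.

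The 77 genes together took 1470 and 1472 CPM in the siControl and siHOTAIRM1 libraries of LN-229, 1484 and 1156 CPM in T98G, and 2491 and 1800 CPM in U251. The pair of LN-229 sums was thus nearly level, while the siHOTAIRM1 library held the lower sum in the other two lines. Among the siControl libraries, U251 was highest for 63 of the 77 genes, and LN-229 and T98G for 7 each. U251 exceeded LN-229 by a median of 0.63 over the members, against 0.17 over all tested genes, on the log2(CPM + 1) scale. After knock-down the median difference between these lines was 0.25 over the members and 0.11 over all tested genes. T98G and LN-229 siControl differed by a median of 0.00. After knock-down T98G lay below LN-229 by a median difference of −0.37 over the members and −0.19 over all tested genes. There was 1 library behind each of these values, and they were not tested.

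**Figure D1:**
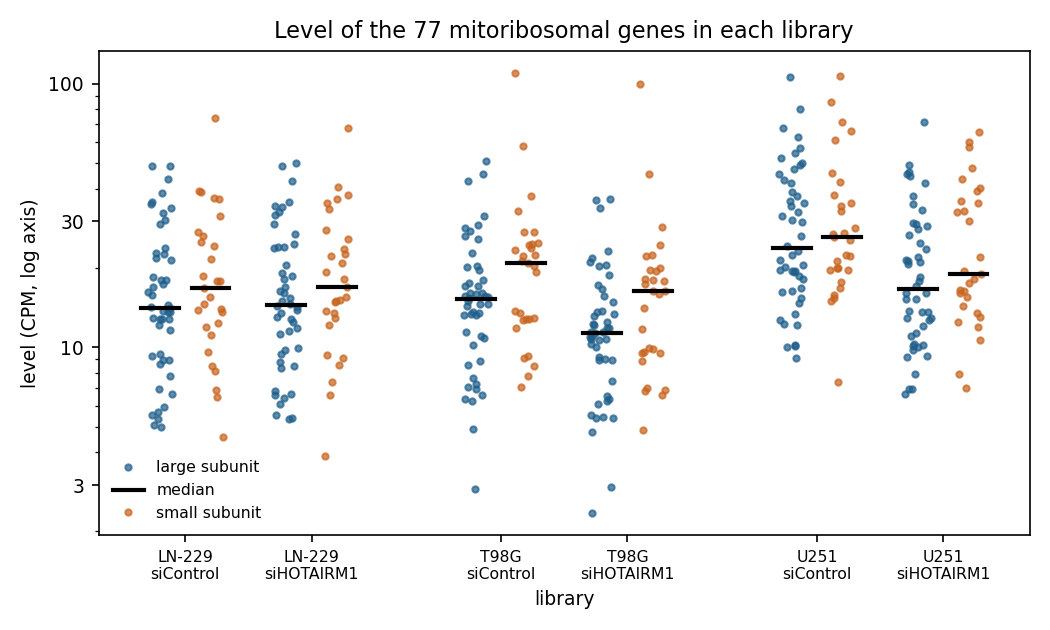
Level of each of the 77 genes (CPM, log axis) in the 6 libraries, with 1 point per gene, coloured by subunit, and a bar at the median of the subunit. U251 siControl held the highest medians of both subunits, and the T98G siHOTAIRM1 medians lay below those of its siControl library.

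Compared per kilobase of annotated transcript, the most abundant members were MRPL33 with a mean of 79.9 CPM per kb over the 6 libraries, MRPS6 with 76.9, MRPL51 with 53.5, MRPL20 with 44.4 and MRPL32 with 39.0. This order was not shared by the lines. MRPL33 ranked first in the U251 libraries alone, at 209 and 141 CPM per kb in siControl and siHOTAIRM1 cells, and MRPS6 ranked first in the other 4, at 73.02 to 118 CPM per kb, with 40.6 and 43.3 in U251. MRPL20, MRPL32 and MRPL33 are relatives of bacterial large subunit proteins, MRPL51 is found only in mitochondria, and MRPS6 is a relative of bacterial S6. MRPS6 shares exonic sequence with SLC5A3, a myo-inositol transporter gene, and the libraries keep no strand, so reads from the shared stretch cannot be assigned to one of them. The same limit holds for MRPL51, which shares exonic sequence with NCAPD2, and for MRPL20, which shares it with RN7SL657P. At the low end stood MRPL42, MRPL22, MRPS33, MRPL50 and MRPL19, from 2.75 to 4.32 CPM per kb. MRPL42 was placed there by its annotated transcript of 15557 bases, since its mean of 42.9 CPM was among the higher ones. The other 4 also have long annotated transcripts, against a median of 1260 bases for the members. These are 3173 bases for MRPL22, 4210 for MRPS33, 3336 for MRPL50 and 7825 for MRPL19, whose mean was 33.8 CPM. MRPL42 and MRPL19 share exonic sequence too, with RN7SL737P and GCFC2. Per kilobase, the median of the small subunit was 0.855 to 1.17 times that of the large subunit over the 6 libraries.

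The genes that differed most between the siControl libraries were MRPL33, MRPL54, MRPS23, MRPL28 and MRPS7. MRPL33 stood at 21.7 CPM in LN-229, 11.0 CPM in T98G and 106 CPM in U251 siControl cells, and at 24.1, 8.94 and 71.7 CPM after knock-down. The mitochondrion-specific gene MRPL54 followed the same order, with 4.97, 2.91 and 22.3 CPM in siControl and 5.53, 2.35 and 10.3 CPM in siHOTAIRM1 cells. In both, the U251 libraries lay above all 4 others. MRPL28, a relative of bacterial L28, showed another order, with 5.95 and 6.43 CPM in LN-229 against 18.5 to 27.5 CPM in the other 4 libraries. MRPL16, MRPL40 and MRPL11 differed least between the siControl libraries, and after knock-down MRPL11 and MRPL40 differed by 0.71 and 0.52 between the highest and the lowest line. MRPL16, which lies near the peptidyl transferase centre, ranged only from 11.9 to 14.3 CPM over all 6 libraries.

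Upon knock-down, the 77 genes had a median change of −0.46 in U251 cells, of −0.36 in T98G cells and of 0.01 in LN-229 cells, against −0.03, −0.19 and 0.01 for all tested genes. The mean over the 3 lines was −0.27 ± 0.25 (SD, n = 3). A change below 0 was seen for 36 of 77 members in LN-229, where 46.3% of all tested genes lay below 0, for 75 in T98G, where 79.3% did, and for 72 in U251, where 53.2% did. In LN-229 the members' share was thus close to that of the other genes. In T98G the share below 0 was high for all genes, and in U251 the members' share of 93.5% stood well above the share of all genes. The bulk libraries cannot tell fewer cells of a type from less RNA per cell.

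**Figure D2:**
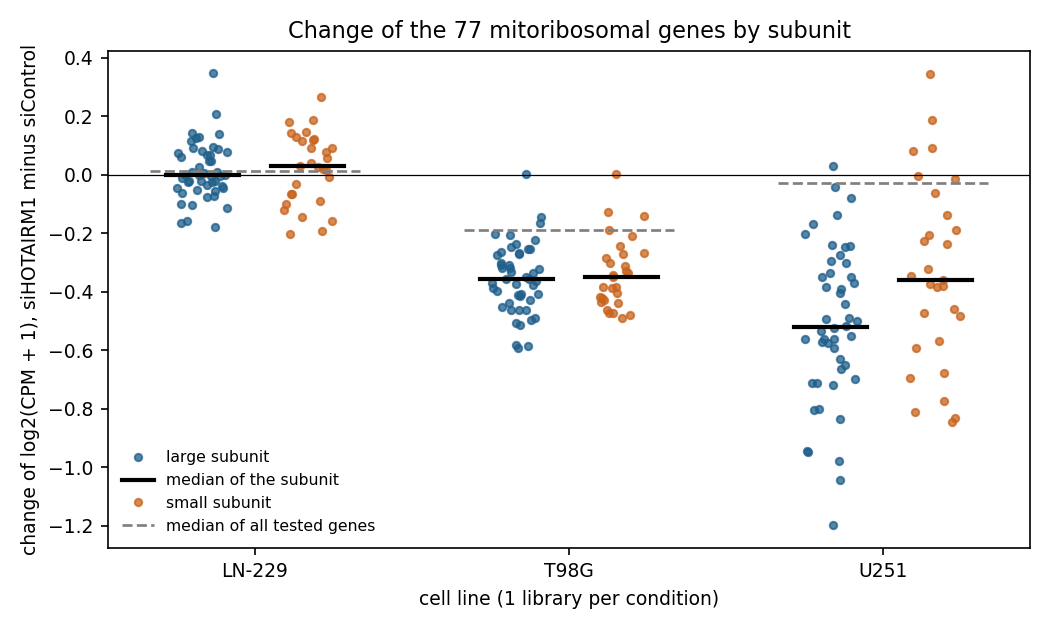
Change of log2(CPM + 1), siHOTAIRM1 minus siControl, of each member in the 3 cell lines, 1 point per gene, with the subunit median (black bar) and the median of all tested genes (dashed). Members centre on 0 in LN-229 and lie below the dashed line in T98G and, with a wider spread, in U251.

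A change of −0.5 or lower was reached by 0 members in LN-229 (0.993% of all tested genes), by 5 in T98G (8.26%) and by 33 in U251 (11.9%). A change of 0.5 or higher was reached by no member in LN-229, T98G or U251, where 1.47%, 0.644% and 6.56% of all tested genes reached it. Genes below 0 in all 3 lines numbered 35 of 77, against a background of 28.1%, and those below 0 in both T98G and U251 numbered 71, against 48.4%. MRPS25 was the 1 member above 0 in all 3 lines, against 11.4% of all tested genes. Its 3 lines did not contribute equally, since its change in T98G was 0.00.

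The spread within a line also differed. The members' changes in U251 had an SD of 0.30, those in T98G one of 0.12 and those in LN-229 one of 0.11, against 0.39, 0.27 and 0.20 for all tested genes. The half-width of a 95% interval for counting error alone at the median member was 0.10 in U251, 0.13 in T98G and 0.11 in LN-229. In LN-229 this interval of the log2 ratio held 0 for 50 of 77 members, lay below 0 for 12 and above 0 for 15. In T98G it lay below 0 for 74 members, and in U251 it lay below 0 for 66 and above 0 for 3. These intervals cover counting error only and say nothing of the spread between cultures, which 1 library per condition cannot give.

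The large and the small subunit were compared within each line. In LN-229 the medians were 0.00 for the large and 0.03 for the small subunit, in T98G −0.36 and −0.35, and in U251 −0.52 and −0.36. The difference of the medians, large minus small, was −0.07 ± 0.08 (SD, n = 3 lines), which is within the spread between the lines. Of the large subunit genes, 25 of 48 reached −0.5 in U251, and of the small subunit genes 8 of 29. The 4 positive changes of small subunit genes in U251, those of MRPS25, MRPS5, MRPS6 and MRPS18B, faced 1 of the large subunit, that of MRPL2. When genes were placed by the position of their protein in the particle, with MRPS30 and MRPS18A moved to the large subunit, MRPS36 left out and 6 proteins with other symbols added, the medians in U251 were −0.51 and −0.37. Sorted by descent, the 45 relatives of bacterial proteins had medians of 0.02, −0.36 and −0.46 in LN-229, T98G and U251, and the 31 mitochondrion-specific ones 0.01, −0.34 and −0.40.

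Over the 3 lines, with the cell line as a block, limma called 0 of the 77 members lower and 0 higher at an adjusted p under 0.05, where 1.59% of the 14294 tested genes were called lower and 0.413% higher. At an unadjusted p under 0.05, 33 members were lower, 24 of the large and 9 of the small subunit, which is 42.9% of the members against 14.2% of all tested genes, and 0 were higher, against 4.19%. A paired t-statistic of each gene alone called 0 members and put 1 under the unadjusted threshold. The unadjusted count was 44 without LN-229, 9 without T98G and 0 without U251. Over all tested genes, in both directions, the counts without these lines were 2870, 1206 and 1083. For the members it was 14 after centring each library on its median, and 10 after rescaling to the listed or to the protein-coding genes. With the trend with transcript length removed it was 17. The count over all tested genes in both directions moved from 2622 to 2609 (centred), 2199 (listed), 2663 (protein-coding) and 2395 (length removed). With both directions counted together, the members' share was thus close to that of all tested genes after centring. After both rescalings it was below that share. The lower side alone was not compared in these settings. After centring, the members' median changes in LN-229, T98G and U251 were −0.03, −0.16 and −0.38, against −0.03, 0.01 and 0.05 for all tested genes. The standard errors of the members ranged from 0.14 to 0.16, so that fitted changes had to be near −0.5 to come close to the threshold. These standard errors draw on a spread that limma shares over all tested genes. They do not give a member's own spread between the lines, which the paired t-statistic uses.

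Because none passed, the 8 members with the smallest p are described, a choice made after their values were seen. MRPL13, a relative of bacterial L13, stood at 17.3 and 16.1 CPM in the siControl and siHOTAIRM1 libraries of LN-229, 20.3 and 15.6 CPM in T98G, and 50.1 and 21.3 CPM in U251. The siHOTAIRM1 value was the lower one in each line, and the U251 siControl library held by far the highest level. Its fitted change was −0.55 (SE 0.16, adjusted p = 0.0622). MRPL13 shares exonic sequence with MTBP.

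MRPL47, whose protein sits by the exit tunnel, showed the same shape, with 12.8 and 11.2 CPM in LN-229, 15.6 and 11.8 CPM in T98G, and 41.9 and 20.7 CPM in U251. Its fitted change was −0.51 (SE 0.15, adjusted p = 0.0663), and the U251 pair again covered the widest distance. MRPL47 shares exonic sequence with ACTL6A. MRPS36 carries a ribosomal symbol, but its protein is now placed in the 2-oxoglutarate dehydrogenase complex of the citric acid cycle. It gave 4.58 and 3.88 CPM in LN-229, 7.08 and 4.87 CPM in T98G, and 15.02 and 7.91 CPM in U251, with a fitted change of −0.50 (SE 0.15, adjusted p = 0.0663). Reads of its pseudogenes made up as much as 27.7% of the sum of gene and pseudogenes, so its level is uncertain.

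MRPL21, a relative of bacterial L21, gave 17.9 and 16.9 CPM in LN-229, 16.1 and 11.4 CPM in T98G, and 30.4 and 15.3 CPM in U251 (−0.50, SE 0.15, adjusted p = 0.0756). MRPL3, a protein near the peptidyl transferase centre and a known gene of mitochondrial cardiomyopathy, was more abundant, with 38.4 and 35.6 CPM in LN-229, 31.6 and 21.8 CPM in T98G, and 80.1 and 45.6 CPM in U251 (−0.47, SE 0.15, adjusted p = 0.0825). In both genes the LN-229 libraries were close together, and the knock-down library was lower in the other two lines. MRPS18C, MRPL17 and MRPS35 followed, with fitted changes of −0.47, −0.47 and −0.44 and adjusted p of 0.0868, 0.0870 and 0.0926. MRPS35, specific to mitochondria, differed from the preceding genes in its level, since its 3 siControl libraries lay between 24.5 and 27.1 CPM. Its siHOTAIRM1 values were 23.6 CPM in LN-229, 17.4 CPM in T98G and 16.4 CPM in U251, so that all 3 lay below all 3 siControl values.

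MRPS25, a mitochondrion-specific small subunit gene, stood at the opposite end. It was at 31.4 and 33.5 CPM in LN-229, 22.2 and 22.2 CPM in T98G, and 25.6 and 32.8 CPM in U251. Its fitted change of 0.14 (SE 0.14, adjusted p = 0.619) was not distinguishable from 0. MRPS25 shares exonic sequence with NR2C2, a nuclear receptor gene.

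**Figure D3:**
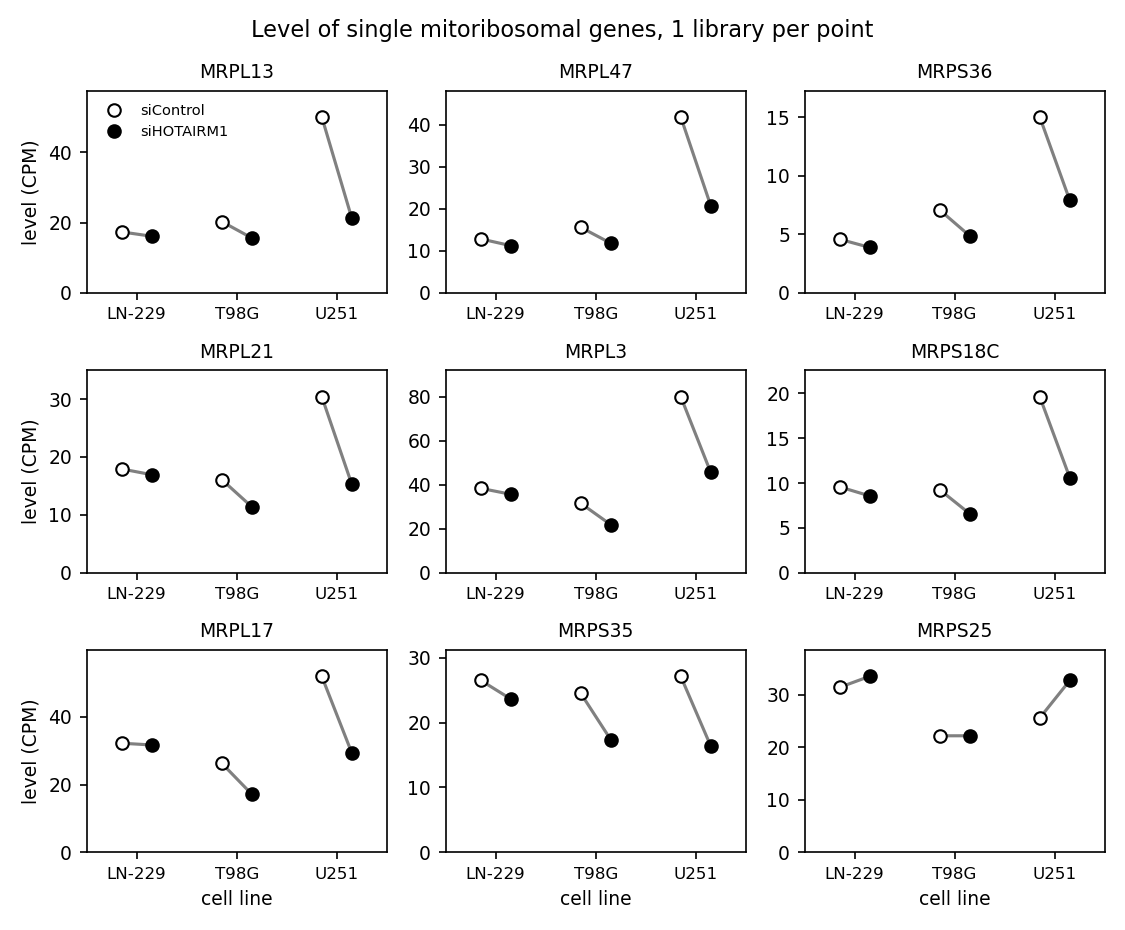
CPM of the 8 members with the smallest p and of MRPS25 in each cell line, 1 library per point, with siControl as open and siHOTAIRM1 as filled points joined by a line. For the first 8 genes the filled point is the lower one in all 3 lines, and for MRPS25 it is the higher one in LN-229 and U251.

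The lines differed in which members stood at the ends. In LN-229 the lowest changes were those of MRPS30 (−0.20), MRPS36 (−0.19), MRPL47 (−0.18) and MRPL1 (−0.16), and the highest those of MRPL4 (0.35), MRPS24 (0.26) and MRPL55 (0.21). T98G had MRPL39 (−0.59), MRPL17 (−0.59), MRPL34 (−0.58) and MRPL3 (−0.51) at the low end and MRPL27, MRPS25 and MRPS31, from 0.00 to −0.13, at the other. MRPS31 shares up to 41.1% of the summed reads with its pseudogenes. In U251 the low end held MRPL13 (−1.20), MRPL54 (−1.04), MRPL47 (−0.98) and MRPL21 (−0.95), and the high end MRPS25 (0.34), MRPS5 (0.19) and MRPS6 (0.09). MRPL4, for example, was at 6.67 and 8.75 CPM in LN-229, 6.92 and 5.43 CPM in T98G and 16.2 and 13.6 CPM in U251. MRPL54, at −1.04 in U251, was at −0.22 in T98G and 0.13 in LN-229.

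Over the 77 members, the changes in T98G and U251 had a Spearman rho of 0.35, those in LN-229 and U251 0.20 and those in LN-229 and T98G 0.10. Over the 14294 tested genes these were 0.49, 0.29 and 0.33. The values of each pair come from the same 4 libraries, genes are not independent replicates, and no test was made.

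**Figure D4:**
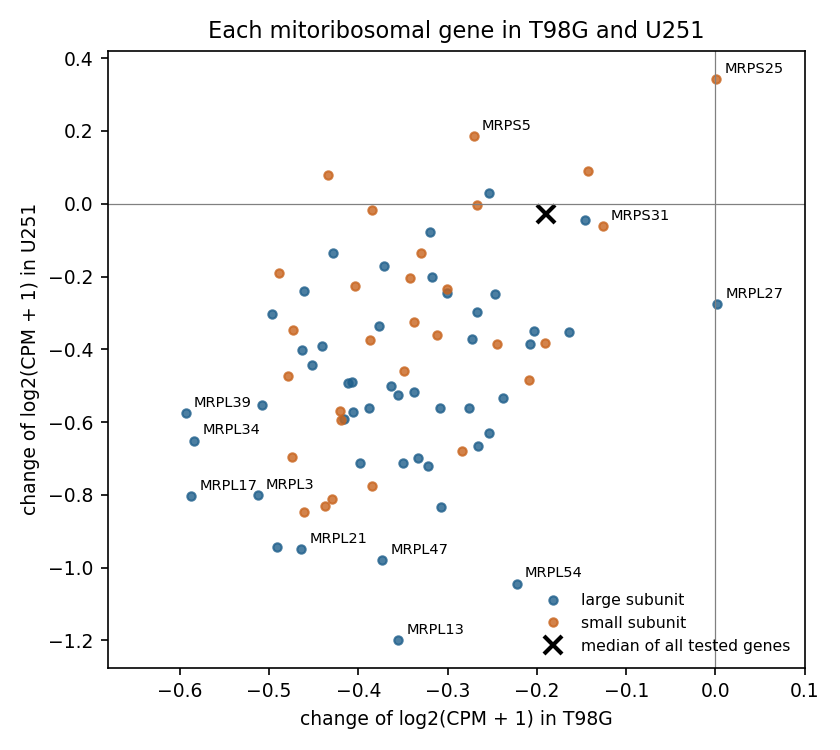
Change of log2(CPM + 1) of each member in T98G (x axis) against that in U251 (y axis), 1 point per gene, coloured by subunit, with a cross at the medians of all tested genes. Of the 77 members, 71 lie below 0 on both axes, and the points form a broad cloud along which MRPL13, MRPL54 and MRPL47 lie below the rest in U251.

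Members were then grouped by their place in the particle, and no member of any group passed the adjusted threshold. The stalk, which recruits the translation factors and consists of MRPL10, MRPL11 and MRPL12, had medians of 0.07, −0.36 and −0.50 in LN-229, T98G and U251. Within it MRPL12, at 29.9 and 17.8 CPM in U251, changed by −0.71, and MRPL10, at 18.1 and 17.1 CPM, by −0.08. The stalk proteins thus differed from each other in U251, while in T98G they lay between −0.32 and −0.40. The 8 exit tunnel genes had medians of 0.01, −0.39 and −0.53, and all 8 were below 0 in T98G and in U251, as were 79.3% and 53.2% of all tested genes. Under the unadjusted threshold were 4 of them, among them MRPL47, MRPL17 and MRPL39, against 14.2% of all tested genes and 42.9% of the members. The 7 genes of the central protuberance, which contacts the small subunit, had medians of 0.01, −0.31 and −0.44.

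For the 4 genes near the peptidyl transferase centre the medians were 0.00, −0.20 and −0.16, with MRPL3 at −0.80 in U251 and MRPL2 and MRPL16 at 0.03 and −0.04. The decoding centre genes MRPS12, MRPS24 and MRPS5 had medians of 0.15, −0.35 and −0.19, and none of them reached the unadjusted threshold. MRPS24 also shares its exons with a readthrough gene, URGCP-MRPS24. The 3 paralogs related to bacterial S18 diverged in U251, where MRPS18C was at 19.6 and 10.6 CPM, MRPS18A at 20.05 and 18.1 CPM and MRPS18B at 28.3 and 30.02 CPM. The first 2 began at about the same level, and only the MRPS18C pair was far apart. Of 13 members that are known genes of inherited mitochondrial disease, 7 were lower at an unadjusted p under 0.05, against 33 of all 77 members and 14.2% of all tested genes, with MRPL3 and MRPS23 the furthest from 0 at −0.47 and −0.44, and the list's medians were 0.03, −0.39 and −0.57.

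Transcript length was examined as a possible bias. The members are short, with a median annotated transcript of 1260 bases (1195.5 for the large and 1458 for the small subunit) against 3258 for tested genes with a known length. Over all 13049 such genes, Spearman rho between change and length was 0.32 for U251, 0.23 for T98G and −0.03 for LN-229, so that short transcripts were lower in T98G and U251. Within the 77 members, rho was 0.12 for U251, 0.07 for T98G and −0.29 for LN-229.

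**Figure D5:**
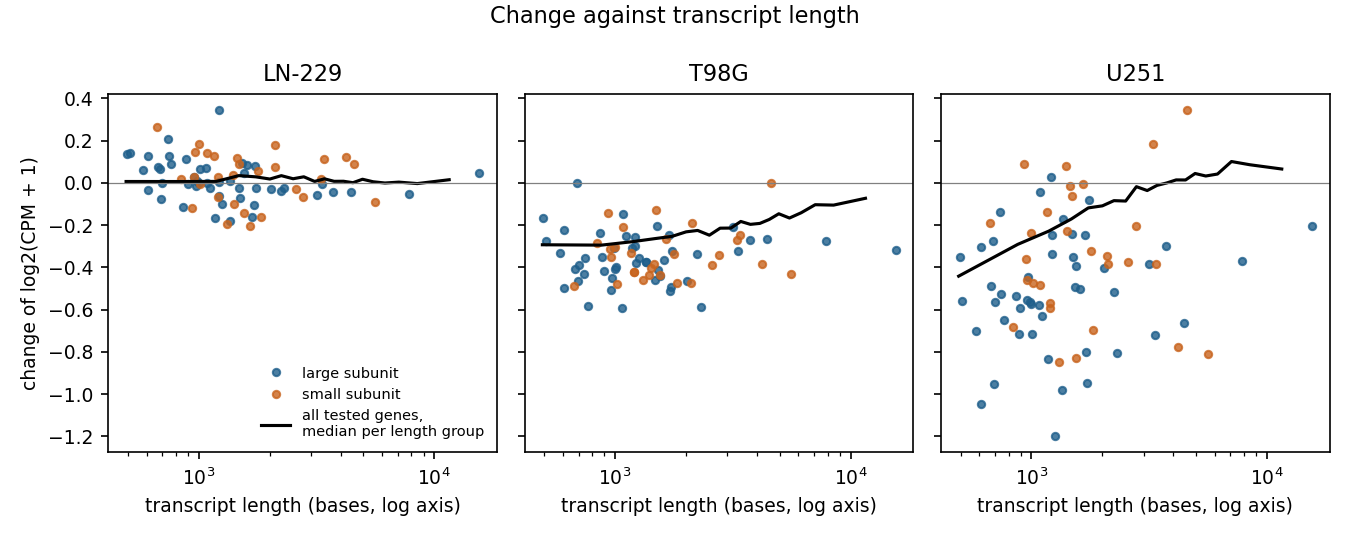
Change of log2(CPM + 1) of each member against the length of its annotated transcript (bases, log axis) in each cell line, with a line through the medians of 20 length groups of all tested genes. In T98G and U251 the line climbs with length, and most members lie below it.

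In U251, the 25 members shorter than 1000 bases had a median change of −0.53, against −0.39 for all tested genes of that length. Those of 1000 to 2000 bases, 34 in number, had −0.43 against −0.16, those of 2000 to 4000 bases, 12 in number, −0.38 against −0.04, and the 6 longer ones −0.52 against 0.05. The members' medians thus moved little with length, while those of all genes climbed. In T98G the members' medians in the 4 length groups lay between −0.30 and −0.38 and those of all genes between −0.13 and −0.29. After the trend with length over all genes was removed, the members' medians were 0.00, −0.31 and −0.31. For the large and the small subunit they were −0.01 and 0.02 in LN-229, −0.31 and −0.33 in T98G, and −0.34 and −0.22 in U251. The difference between the subunits in U251 was thus smaller than before, and in T98G its sign was reversed. The difference from the median of all genes shrank from −0.17 to −0.11 in T98G, keeping 67.4%, and from −0.43 to −0.28 in U251, keeping 65.3%. In this setting limma called 5 members lower (MRPL13, MRPL17, MRPL47, MRPS23 and MRPS36). Of all 13049 genes, it called 487 lower, and 627 in both directions.

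The scale of the libraries mattered as well. Rescaled to the protein-coding genes, the members' medians for LN-229, T98G and U251 were −0.01, −0.12 and −0.37, and the medians of all tested genes 0.00, 0.03 and 0.05. Rescaled to all listed genes, the members' medians were −0.04, −0.15 and −0.21, and with each library centred on its median −0.03, −0.16 and −0.38. Under each of these scalings 0 members were called. A scaling shifts all genes of a library nearly alike, so it leaves the distance between the members and the other genes about as it was. Among the genes called by limma, 20.6% were higher as deposited, 36.6% after centring, 40% after rescaling to the listed genes and 42.9% after rescaling to protein-coding genes. For single members a direction given above holds for the deposited CPM. In U251, 72 members lay below 0 as deposited, 68 after centring, 67 and 56 after rescaling to the protein-coding and to the listed genes.

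Many of these genes share a start region with a neighbour on the opposite strand. A protein-coding neighbour starting within 1000 bases, head to head, was annotated for 17 of 77 members (22.1%), and for 11.4% of the 11838 tested protein-coding genes. MRPL46 and MRPS11 form such a pair within the particle, with annotated starts 63 bases apart on chromosome 15. MRPL46, a central protuberance gene, was at 12.9 and 13.01 CPM in LN-229, 13.5 and 10.7 CPM in T98G and 15.4 and 10.1 CPM in U251, and MRPS11, a relative of bacterial S11, at 13.9 and 15.1, 21.2 and 17.8, and 21.3 and 16.1 CPM. Both were lower after knock-down in T98G and U251 and neither passed the test. Other partners are a respiratory chain gene next to MRPL47 (NDUFB5) and next to MRPL36 (NDUFS6), the ribosomal fusion gene FAU next to MRPL49, the chaperonin gene TCP1 next to MRPL18 and the mitochondrial seryl-tRNA synthetase SARS2 next to MRPS12. MRPL47 and NDUFB5 had near-equal changes, with −0.98 and −0.85 in U251 and −0.37 and −0.37 in T98G. MRPS12 and SARS2 did not, with −0.46 and 0.09 in U251, and MRPL21 and IGHMBP2 had −0.95 and 0.17. Over the 12 tested partners outside the particle, the median change was 0.02, −0.21 and −0.12 in LN-229, T98G and U251, and over the 17 members −0.02, −0.32 and −0.53. The 2 sets are not matched. The 17 also hold MRPL10, MRPL32 and MRPL52, whose partners were not tested, and the pair MRPL46 and MRPS11.

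Promoter sequences from RefSeq (GRCh38.p14), 250 bases before to 50 after a gene's start, were given for 68 members. They were searched on both strands for CCGGAAG, the core recognised by ETS family factors, and AAGATGGCG, a form of the YY1 element. The ETS letters were found in 42.6% of the 68 members and in 23.1% of the 9221 tested protein-coding genes with a sequence, and the YY1 letters in 19.1% and 4.87%. The NRF1 core GCGCATGC was found in 8.82% against 6.70%, and the TATA box letters TATAAA in 4.41% against 8.34%. One or both of the ETS and YY1 letters were found in 38 members (55.9%), against 26.8% of those genes. A match describes letters, not a bound factor. Members with and without the ETS letters had median changes of −0.49 and −0.38 in U251, and those with and without the YY1 letters −0.30 and −0.47. In T98G these medians were −0.37 and −0.34 for ETS, and −0.32 and −0.36 for YY1. Over the 9221 genes, the U251 medians with and without the letters were −0.08 and −0.02 for ETS, and −0.04 and −0.03 for YY1. The following windows show a member low in U251 with the ETS letters (MRPL47, chr3:179604597-179604896, minus strand), a member with both (MRPS10, chr6:42217812-42218111, minus strand), the MRPL46 side of the shared region with the YY1 letters (chr15:88467339-88467638, minus strand), and the member with the highest change in U251, with neither (MRPS25, chr3:15065266-15065565, minus strand). Each is written 5′ to 3′ along its gene, and capitals mark the ETS and YY1 letters.
MRPL47: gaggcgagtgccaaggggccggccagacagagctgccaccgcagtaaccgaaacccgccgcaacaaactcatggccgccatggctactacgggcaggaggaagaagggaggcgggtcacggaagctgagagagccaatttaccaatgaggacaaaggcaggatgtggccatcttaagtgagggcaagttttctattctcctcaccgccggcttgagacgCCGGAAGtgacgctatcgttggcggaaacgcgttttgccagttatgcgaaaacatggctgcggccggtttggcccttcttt
MRPS10: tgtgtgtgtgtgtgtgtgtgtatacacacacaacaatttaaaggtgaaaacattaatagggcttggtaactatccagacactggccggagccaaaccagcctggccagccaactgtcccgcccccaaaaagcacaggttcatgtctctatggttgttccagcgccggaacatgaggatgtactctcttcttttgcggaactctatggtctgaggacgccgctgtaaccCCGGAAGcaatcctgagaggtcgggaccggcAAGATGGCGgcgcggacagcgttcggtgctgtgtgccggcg
MRPL46: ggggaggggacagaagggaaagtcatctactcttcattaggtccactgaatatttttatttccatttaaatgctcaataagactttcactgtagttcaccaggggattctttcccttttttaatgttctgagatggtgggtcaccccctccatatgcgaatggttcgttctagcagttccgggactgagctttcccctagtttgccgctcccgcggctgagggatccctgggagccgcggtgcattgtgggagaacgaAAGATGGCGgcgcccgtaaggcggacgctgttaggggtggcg
MRPS25: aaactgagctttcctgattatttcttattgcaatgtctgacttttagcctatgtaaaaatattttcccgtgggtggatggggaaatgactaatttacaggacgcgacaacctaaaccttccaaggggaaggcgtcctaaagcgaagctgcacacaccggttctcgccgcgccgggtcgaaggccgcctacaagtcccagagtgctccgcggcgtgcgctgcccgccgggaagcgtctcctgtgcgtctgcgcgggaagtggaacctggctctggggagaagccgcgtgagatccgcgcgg
MRPS10, a relative of bacterial S10, had changes of 0.08, −0.47 and −0.35 in LN-229, T98G and U251, against −0.18, −0.37 and −0.98 of MRPL47 and 0.09, 0.00 and 0.34 of MRPS25.

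Proteins of the particle that carry other symbols, and the factors that serve it, were listed separately, and none of their genes passed the adjusted threshold. Of the large subunit proteins, the peptidyl-tRNA hydrolase ICT1 had a fitted change of −0.50 (SE 0.15, adjusted p = 0.0753) and GADD45GIP1 of −0.18. Among the 4 of the small subunit, CHCHD1, AURKAIP1 and DAP3, a GTP-binding protein, were lower at an unadjusted p under 0.05, with −0.43, −0.41 and −0.33, and PTCD3 was at 0.07. The 13 translation factor genes had medians of 0.04, −0.26 and −0.20 in LN-229, T98G and U251, with 2 under the unadjusted threshold, which 14.2% of all tested genes passed on the lower side, the initiation factor MTIF3 and the recycling factor GFM2, at −0.33 each. The 22 assembly factor genes had medians of −0.03, −0.29 and −0.10, with FASTKD2 (−0.37) and DDX28 (−0.30) under that threshold. For the 17 mitochondrial aminoacyl-tRNA synthetases the medians were −0.03, −0.23 and −0.19, with CARS2 and MARS2 (−0.32 each) under it. The 14 genes of mitochondrial transcription and RNA handling had −0.02, −0.21 and −0.12, with 3 under it, among them the RNA-binding protein SLIRP (−0.51, adjusted p = 0.0754) and the transcription factor TFB2M (−0.42). The counts of the factor lists were close to or below that share, except 3 of 14 in the last. In U251 the medians of these 4 lists of factors, −0.10 to −0.20, lay between that of all tested genes and that of the particle's own genes.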

How the data were processed

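Total RNA of 3 cell lines, 2 libraries each, had been prepared by the authors with an unstranded TruSeq v2 kit, trimmed, aligned to hg38 with STAR 2.4.1d (unaligned reads with Bowtie 2) and quantified against Ensembl by expectation-maximization in Partek. The deposited values are CPM per gene with 0.0001 added, as estimated by the authors. This algorithm divides shared reads between overlapping genes and copies, and only 84.7% to 86.6% of low values were whole multiples of 1 read (within 0.05 reads, below 100 reads), so no count test was run. Genes averaging 1 CPM or more over the libraries were fitted on log2(CPM + 1) with limma 3.58.1 in R 4.3.3 (mean-variance trend, cell line as block, Benjamini-Hochberg adjustment, two-sided, threshold 0.05). The authors' paired t-statistic over lines was an alternative. The cell lines pair the libraries, since both libraries of a pair come from the same line. p-values of limma rest on a spread between the 3 lines that is partly shared over all tested genes, not on each gene's own spread alone. The paired t-statistic uses each gene's own spread only. Each line stands for 1 replicate, with 1 library per condition.

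Symbols were matched to the gene annotation, which named all 77 members. The canonical transcript gave the length, and a lowess curve per line the trend removed. Per-library depth was read from the value of 1 read. Counting intervals (95%) and the level of 3 reads cover counting error only. Alternatives were other scalings, pseudocount 0.1, no filter, no trend, no block, pseudogene rows added, each line left out, and, chosen after seeing the data, members with exonic overlap left out.

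Named genes were those with the 5 highest and 5 lowest levels per kb, the 5 largest and 3 smallest differences between lines, and in each line the 4 most negative and 3 most positive changes, with examples from the structural and factor lists. The members and lists were chosen with earlier results of these data known, and the 8 with the smallest p after their values were seen.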

Additional observations from a re-analysis of the deposited data

Results flagged for a closer look

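MRPL4 and MRPS24 stood out because LN-229 and T98G moved in opposite directions by more than 0.25 on the log2(CPM + 1) scale. MRPL4, a relative of bacterial L4, was at 6.67 and 8.75 CPM in the siControl and siHOTAIRM1 libraries of LN-229 and at 6.92 and 5.43 CPM in T98G, and its change in LN-229 minus that in T98G was 0.6469. MRPS24, a relative of bacterial S3, was at 18.6 and 22.5 CPM in LN-229 and at 23.4 and 16.4 CPM in T98G, a difference of 0.7529. With 1 library per line and condition the difference between the lines was not tested. MRPS24 shares exons with URGCP-MRPS24, and the part of that gene's reads in the value was not tested.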

How the results depend on the processing

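The number of genes called by limma, 286, moved with almost every choice. It was 41 after centring, 25 after rescaling to the listed genes, 7 after rescaling to protein-coding genes, 683 with a pseudocount of 0.1, 0 without a filter, 185 without the mean-variance trend, 0 by the paired t-statistic and 627 after the trend with length was removed. Leaving out one line gave 0 to 270 genes, 0 without T98G and 149 without U251. Without the block that pairs the libraries by cell line, 0 genes were called. The cause of these shifts was not tested. Of the 77 members, 0 were called lower as deposited, 7 with a pseudocount of 0.1, 5 after length was removed and 0 to 1 with a line left out, the 1 being MRPL17 without LN-229. Of the 14294 tested genes, 227 were called lower as deposited, 534 with that pseudocount and 239 without LN-229. After length was removed, 487 of 13049 were. None of the 77 members was called higher in any setting. The median change in U251 was −0.21 after rescaling to the listed genes against −0.46 as deposited. All other medians stayed within 1 SD of the spread between lines, which for the members' medians was 0.25 and so nearly as large as their mean. Within that limit the T98G median still went from −0.36 as deposited to −0.12 after rescaling to protein-coding genes. The mean over the lines, −0.27 as deposited, ranged from −0.41 without LN-229 to −0.13 after rescaling to the listed genes. With the 25 members whose exons overlap another gene left out, the medians were 0.01, −0.34 and −0.49. Every member rested on 171 reads or more, and each line on 1 library per condition.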
